A study of Mus musculus with 3 samples.

Results

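Bnip3, Bnip3l, Fundc1, Pink1, Sqstm1, Map1lc3b, Gabarapl1, Becn1 and Ulk1 encode proteins that mark mitochondria for removal or build the autophagosome that takes them up. They were followed by every probe set whose platform annotation gives 1 of these 9 symbols and no other. This gave 21 probe sets for 8 genes, out of 45101 probe sets and 18193 named genes on the Affymetrix mouse genome array. Bnip3 was picked by its high signal on the array labelled siENG, so its ratios to that array are a description. The 3 probe sets annotated to Bnip3l also list its pseudogene, so Bnip3l has no reading of its own here.

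In mitophagy, damaged or surplus mitochondria are wrapped in a membrane and delivered to the lysosome. One route uses receptors in the outer mitochondrial membrane (BNIP3, its relative NIX, encoded by Bnip3l, and FUNDC1) that bind LC3 and GABARAP proteins on the growing autophagosome. The other route starts with the kinase PINK1, which gathers on depolarised mitochondria, starts the ubiquitin tagging of their surface and leads to ubiquitin-binding adaptors such as p62, encoded by Sqstm1. Both use the general machinery, in which the ULK1 kinase complex and the Beclin 1 lipid kinase complex begin the membrane. BNIP3 is a textbook target of the hypoxia-inducible factors, while much of the control of the other proteins acts after translation and is not read by an mRNA array.

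PDL-L2 is an immortalised fibroblastic line derived from mouse periodontal ligament, the tissue that ties tooth root to jaw bone. All 3 conditions received a pool of siRNAs, either non-targeting (siCont) or against endoglin (siENG), an accessory receptor for TGF-β, and exposure began 48 h later. One array each was run for siCont cells given vehicle, siCont cells given recombinant human BMP-2 at 250 ng/ml, and siENG cells given the same BMP-2 dose (called the vehicle, BMP-2 and siENG arrays), all for 12 h. Per the labels, BMP-2 was added in medium with ascorbic acid and beta-glycerophosphate. No array of siENG cells without BMP-2 is among them. An effect of siENG alone thus cannot be told apart from an effect on the response to BMP-2. With 1 array per condition there is no replicate check and no test, and whether the cultures were pooled is not stated.

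Signals are linear intensities as deposited. The siENG array was brighter, with a 2% trimmed mean signal of 166 against 141 (siCont vehicle) and 143 (siCont BMP-2). A probe set was kept in a comparison where the higher of its 2 signals reached 23.0, the median of all probe sets. Log2 ratios were centred on the median of the probe sets kept, which lay at 0.01 for BMP-2 over vehicle, 0.21 for siENG over siCont with BMP-2 and 0.22 for siENG with BMP-2 relative to siCont with vehicle. The scatter of probe sets of similar signal is given as a robust SD of the log2 ratio, which stands in for replicate error and is not one. Both endoglin probe sets were lowest on the siENG array, with signals of 286, 299 and 108 in the brighter (vehicle, BMP-2, siENG with BMP-2). Of 8 measured periodontal ligament fibroblast markers, 6 passed the limit on every array, including Postn, Col1a1 and Vim, while Aspn and Thy1 did not exceed the Bacillus controls, which have no target in mouse RNA.

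Bnip3, the outer membrane receptor, stood apart from the other genes of the group on the siENG array. Its probe set had signals of 595, 450 and 3342 on the vehicle, BMP-2 and siENG arrays. The siENG array was the high one, and BMP-2 alone gave the lowest value. Relative to the BMP-2 array, the siENG signal was 7.42-fold as deposited and 6.42-fold after centring (log2 ratio 2.68, robust SD 0.22). Against siCont vehicle the centred ratio was 4.82 (log2 2.27, robust SD 0.22). Both ratios rest on the siENG reading that picked Bnip3 and are given as a description. Among 7181 genes with a highest signal of at least 152, the 75th percentile, this was the 5th largest ratio of siENG over siCont, and among all 10854 genes kept it was the 19th. Bnip3 has 1 probe set on the array and thus no second reading. In bulk RNA, more cells with the transcript and more transcript per cell cannot be told apart.

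With BMP-2 alone, a contrast that the choice of Bnip3 did not use except through the shared siCont BMP-2 array, Bnip3 was lower than in vehicle (centred ratio 0.753, log2 -0.41, robust SD 0.15). This array is the denominator for siENG and the numerator here, so a low reading on it would raise the siENG ratio and lower this one.

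**Figure D1:**
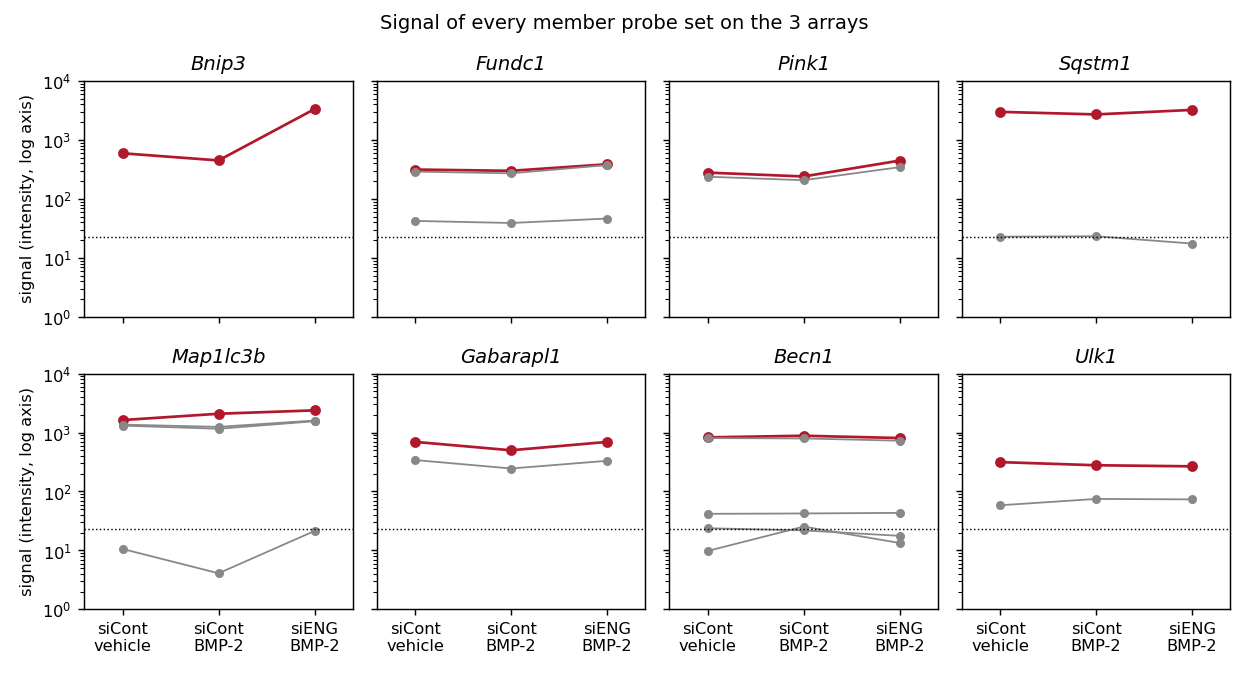
Signal (intensity, log axis) of each of the 21 probe sets of 8 genes on the siCont vehicle, siCont BMP-2 and siENG BMP-2 arrays, 1 array each, with red for the brightest probe set of a gene, grey for its others and a dotted line at the signal limit of 23.0. Bnip3 goes from 450 on the BMP-2 array to 3342 on the siENG array, Pink1 goes from 241 to 447 in its brighter probe set, and Gabarapl1 is lowest on the BMP-2 array.

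The 250 bases before the transcription start are shown for Bnip3, for Pink1, the gene of the next largest ratio on the siENG array, and for Map1lc3b, whose ratio there was near 0 (RefSeq, GRCm38.p6, each on the strand of its gene). Bnip3 lies at chr7:138909507-138909756 on the minus strand, Pink1 at chr4:138326297-138326546 on the minus strand and Map1lc3b at chr8:121590188-121590437 on the plus strand. Capitals mark ACGTG and GCGTG, the core letters that hypoxia-inducible factors are known to bind, read on either strand (CACGT and CACGC on the strand shown).
Bnip3: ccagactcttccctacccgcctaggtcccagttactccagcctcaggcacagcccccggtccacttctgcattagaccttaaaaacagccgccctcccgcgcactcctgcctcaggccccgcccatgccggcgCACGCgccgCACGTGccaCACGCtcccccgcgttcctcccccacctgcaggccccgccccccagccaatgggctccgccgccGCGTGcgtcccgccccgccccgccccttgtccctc
Pink1: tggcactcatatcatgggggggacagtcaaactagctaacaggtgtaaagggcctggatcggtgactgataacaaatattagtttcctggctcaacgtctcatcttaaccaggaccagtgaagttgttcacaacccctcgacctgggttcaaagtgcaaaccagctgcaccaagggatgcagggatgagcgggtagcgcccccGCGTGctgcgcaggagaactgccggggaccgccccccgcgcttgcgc
Map1lc3b: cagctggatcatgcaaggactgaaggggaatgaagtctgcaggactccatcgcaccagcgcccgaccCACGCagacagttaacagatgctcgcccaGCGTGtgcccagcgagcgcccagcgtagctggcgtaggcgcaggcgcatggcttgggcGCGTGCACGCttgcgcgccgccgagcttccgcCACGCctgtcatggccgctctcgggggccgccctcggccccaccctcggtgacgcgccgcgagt
The Bnip3 window held 5 matches, of which the pair in the E-box CACGTG overlap, 108 to 103 bases before the start. The CACGTG letters were found in 6.02% of all 32851 windows of this length and either core in 38.6%, and 1.01% held 5 matches or more. Map1lc3b also had 5 matches, all of GCGTG, and Pink1 had 1. Windows were found for 7 of the 9 genes, all but Bnip3l and Becn1, and 4 of the 7 held a core. Fundc1, Sqstm1 and Gabarapl1 had no match, which says only that these letters are not in those windows. The Fundc1 window (17572008 to 17572257, minus strand) lay inside the span of its gene, which ends at 17572329. The Ulk1 window overlapped its gene in part. For Fundc1 the missing match thus does not describe the bases before the whole gene. A match is a description of letters and not a measured binding site.

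Fundc1, the other mitochondrial receptor measured, was nearly level. Its 3 probe sets had centred log2 ratios of -0.12 to -0.08 for BMP-2 over vehicle and of 0.04 to 0.25 for siENG over siCont. The brightest gave signals of 315, 300 and 387 on the vehicle, BMP-2 and siENG arrays. All 3 were highest on the siENG array as deposited, and each ratio in these comparisons lay within the robust SD of probe sets of similar signal (0.19 to 0.49).

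Sqstm1 encodes p62, which links ubiquitin-tagged cargo to LC3. Its bright probe set had signals of 2999.9, 2715 and 3238 on the vehicle, BMP-2 and siENG arrays. The centred log2 ratio of siENG over siCont was 0.04 (robust SD 0.22), and that of BMP-2 over vehicle was -0.15 (robust SD 0.11). A second, dim probe set read 22.9, 23.3 and 17.5, at the signal limit, where the robust SD exceeded 0.5.

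Pink1, the kinase that senses depolarised mitochondria, had the second largest siENG over siCont ratio of the 8 genes. Its brighter probe set had signals of 280, 241 and 447 on the vehicle, BMP-2 and siENG arrays. The other read 239, 208 and 346, in the same order of arrays. Centred log2 ratios of siENG over siCont were 0.68 and 0.52, both above the robust SD of 0.33 and below 2-fold. Against vehicle they were 0.46 and 0.31 with robust SDs of 0.30 and 0.32, so the second was no larger than the scatter. Both Pink1 probe sets were lowest with BMP-2 alone, with log2 ratios to vehicle of -0.22 and -0.21 (robust SD 0.19). A lowest reading on the BMP-2 array was not particular to Pink1 and Bnip3. Past the limit, 3 of 3 Fundc1, 2 of 2 Gabarapl1, 2 of 3 Map1lc3b and 1 of 2 Sqstm1 probe sets had it. For Becn1 and Ulk1, 0 did. The Gabarapl1 probe sets did not share the whole order, as 0 of 2 were highest on the siENG array. The share of all probe sets lowest on the BMP-2 array was not counted, so these counts are a description.

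Among the ubiquitin-like proteins of the autophagosome membrane, Gabarapl1 differed from vehicle with BMP-2 alone. Its probe sets read 694, 500.2 and 693 in one case and 342, 246 and 332 in the other, in the order vehicle, BMP-2, siENG. Only the siCont BMP-2 array was low. Both gave a centred log2 ratio of -0.48 for BMP-2 over vehicle (robust SD 0.15 and 0.19). Between siENG and siCont they gave 0.26 and 0.22 (robust SD 0.27 and 0.33). As deposited, the siENG array lay at 0.998 and 0.970 of the vehicle signal.

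Map1lc3b encodes LC3B, the protein most used to mark autophagosomes. Its brightest probe set read 1628, 2083 and 2378 on the vehicle, BMP-2 and siENG arrays, a centred log2 ratio of 0.35 for BMP-2 over vehicle (robust SD 0.11). The next pair read 1362 and 1309 in vehicle and 1248 and 1160 with BMP-2, with log2 ratios of -0.13 and -0.18. Probe sets of Map1lc3b thus differed in sign for BMP-2, and their mean was 0.01 with an SD of 0.29 over 3 probe sets. Its 3 ratios of siENG over siCont lay between -0.02 and 0.21, each within the robust SD of 0.22. The fourth stayed under the signal limit on every array, with 10.6, 4.1 and 21.4.

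Becn1, the scaffold of the lipid kinase complex, read 828, 883 and 807 on the vehicle, BMP-2 and siENG arrays in its brightest probe set, and 806, 794 and 727 in the next. Centred log2 ratios of siENG over siCont were -0.34 in both (robust SD 0.27) and -0.13 in both as deposited. The 3 dim probe sets of Becn1 had signals below 44. One of them, of the type whose probes can cross-hybridise, read 9.8, 25.4 and 13.4 on the vehicle, BMP-2 and siENG arrays. It was at least 2.27-fold higher with BMP-2 than in vehicle, where it lay within the Bacillus controls, and its centred log2 ratio of siENG over siCont was -1.13 (robust SD 0.63). The bright Becn1 probe sets were near 0 for BMP-2 over vehicle (0.08 and -0.03). For siENG over siCont they were also below 0, but by less than 2-fold.

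Ulk1, the kinase that starts autophagosome formation, read 315, 279 and 267 in its brighter probe set and 58.4, 74.8 and 73.5 in the other. With BMP-2 over vehicle their log2 ratios were -0.18 and 0.35, of opposite sign (robust SD 0.19 and 0.29). The siENG over siCont values were -0.27 and -0.24, within the scatter (robust SD 0.33 and 0.40).

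Counted together, 20 of the 21 probe sets were kept for BMP-2 over vehicle. One was 2-fold or more higher, the dim Becn1 probe set, and 0 were lower, where 2.01% and 1.98% of all 23632 probe sets kept were. Their median log2 ratio was -0.13 against 0 over all, with 14 below 0, and 9 of the 20 lay within the robust SD of their signal bin, against 64.4% of all probe sets kept. For siENG over siCont, 19 were kept, 1 was higher (Bnip3) and 1 lower (the same dim Becn1 probe set), where 2.50% and 3.04% of all were. As deposited, 1 was higher and 0 were lower, where 4.36% and 1.75% of all were. The median was 0.04, and 13 of the 19 lay within the robust SD of their signal bin, against 64.8% of all, or 8 of 19 against 55.7% as deposited. For siENG BMP-2 over siCont vehicle, 18 were kept, Bnip3 alone was 2-fold or more higher and 0 were lower, where 2.36% and 3.44% of all were, or 4.12% and 1.98% as deposited. Without Bnip3, the brightest probe sets of the other 7 genes ran from -0.34 to 0.68 for siENG over siCont, with a median of 0.04, and 0 of them were past 2-fold.

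**Figure D2:**
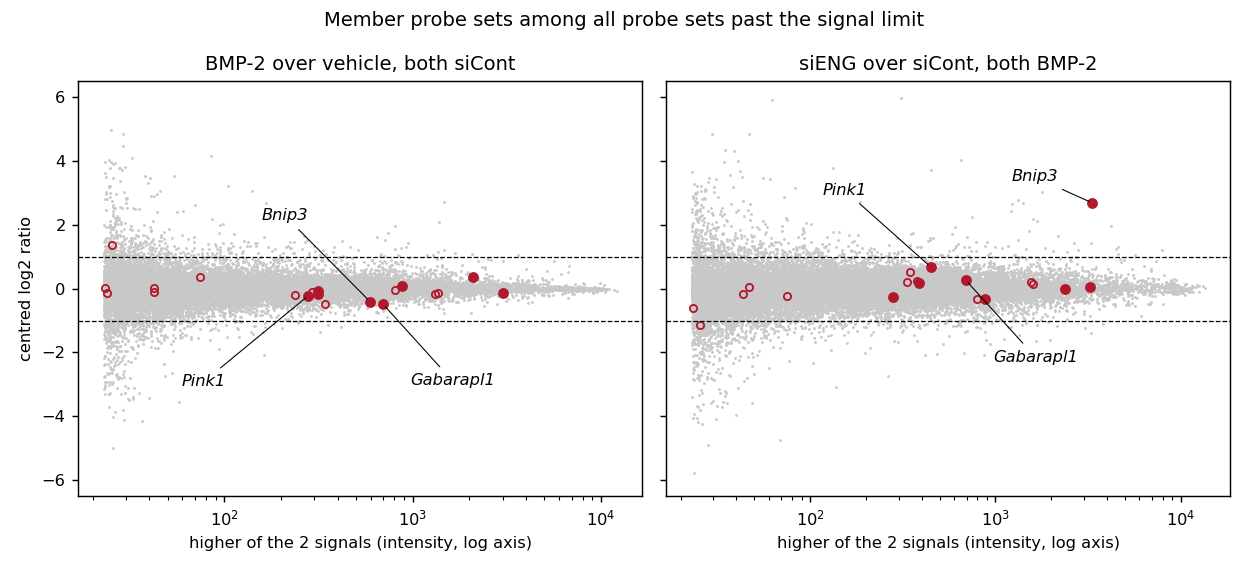
Centred log2 ratio plotted on the brighter signal of each pair (intensity, log axis) for probe sets past the signal limit, 1 grey point each, for BMP-2 over vehicle (left) and siENG over siCont with BMP-2 (right). Filled red points are the brightest probe set of each of the 8 genes, open red points their others, and dashed lines mark 2-fold. On the right Bnip3 lies at 2.68, and the remaining filled points lie between -0.34 and 0.68.

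A wider list of 92 genes of autophagy, mitophagy, mitochondrial shape and the lysosome was read, each gene from its brightest probe set. Of these, 88 were measured and 86 kept. For siENG over siCont 2 were 2-fold or more higher (Bnip3 and Atg7) and 0 lower, where 2.32% and 2.70% of all 10854 genes kept were. As deposited 3 were higher, with Atg4b as the third, against 4.04% of all genes. Bnip3 was picked by its siENG signal. With the genes of the Bnip3 group left out, 1 of 78 was higher after centring and 0 were lower. The list's median log2 ratio was 0.10 after centring and 0.31 as deposited, against 0.03 and 0.24 over all genes. With BMP-2 over vehicle 0 were higher and 1 was lower, Bcl2, where 1.78% and 1.59% of all genes were. For siENG BMP-2 over siCont vehicle 2 were higher and 0 lower, where 2.25% and 2.85% of all were. Without the Bnip3 group these counts were 1 and 0 of 78. As deposited 3 were higher there, against 3.99% of all genes. At such shares a count of 0 in any of the short lists that follow is no result about the list.

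Of the ULK complex, 5 of 5 genes were kept and 0 passed 2-fold in any comparison. Atg13, a scaffold of the complex, read 137, 137 and 229 on the vehicle, BMP-2 and siENG arrays (log2 ratio of siENG over siCont 0.53, robust SD 0.34). Ulk2 stood at 0.40 in its brightest probe set, but its others past the limit gave 0.21, -0.28 and 1.73, the last with siCont signals within the Bacillus controls. Atg101 stood at 0.31, while Ulk1 alone of the 5 was below -0.2.

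The Beclin 1 list had 9 of 9 kept and 0 past 2-fold in any comparison. Vmp1, a membrane protein of the endoplasmic reticulum needed for autophagosomes, had the lowest log2 ratio of siENG over siCont, -0.41 (robust SD 0.22), but its second probe set gave -0.04. Rubcn, an inhibitor of the complex, had 0.44 and Atg14, which directs it to autophagy, 0.29.

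In the ATG8 conjugation list, Atg7 was past 2-fold among 15 kept. Atg7, the enzyme that activates ATG8 proteins, read 66.2, 70.9 and 177 on the vehicle, BMP-2 and siENG arrays in its brightest probe set (log2 ratio of siENG over siCont 1.11, robust SD 0.39). Its other probe sets gave 0.20, -0.68 and 0.04, so the probe sets of Atg7 did not share the difference. The protease Atg4b, which trims ATG8 proteins, had 0.82 and 0.16 in its probe sets past the limit, Atg4c 0.63 and 0.07, and the dim Atg10 0.43. Of the ATG9, ATG2 and WIPI genes, 7 were kept and 0 passed 2-fold, led by the lipid transfer protein Atg2a at 0.63, with Wipi2 at 0.29, Wdr45 at 0.28 and Wdr45b at -0.20.

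Of the selective receptors, 0 besides Bnip3 passed 2-fold. Among 9 kept with the members, Fkbp8, an outer membrane protein that binds LC3, stood next to Bnip3 with signals of 302, 218 and 396 on the vehicle, BMP-2 and siENG arrays (log2 ratio of siENG over siCont 0.65, robust SD 0.33). Phb2, an inner membrane receptor, had 0.41 in its brightest probe set and 0.50, 0.37 and -0.31 in its others. Tax1bp1, a ubiquitin-binding adaptor, had 0.35 in its brightest and 0.34, 0.54 and -0.65 in its others. Of 11 measured genes listed with the PINK1 route, 0 passed 2-fold. Pink1 led at 0.68, and Usp30, a mitochondrial deubiquitinase, followed at 0.59 (0.35 in its other probe set), with the mitochondrial ubiquitin ligase Mul1 at 0.48 (0.03 in its other) and the outer membrane fusion protein Mfn2 at -0.37.

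Genes for partners and regulators of the receptors were past 2-fold in 1 case. Bcl2, the survival protein that binds BNIP3, read 114, 55.3 and 99.1 on the vehicle, BMP-2 and siENG arrays, a log2 ratio of -1.05 for BMP-2 over vehicle. Its next probe sets gave -1.21 and -1.34, and the remaining pair, under the signal limit on each array, -0.06 and -0.01. Bcl2 was thus low on the siCont BMP-2 array in the 3 probe sets past the limit. With siENG over siCont, 0 of 14 passed 2-fold in their brightest probe set. Bcl2 had 0.63, and 0.75 and 1.24 in the next probe sets, the last past 2-fold. Foxo3, a transcription factor known to act on Bnip3, had 0.44 in its brightest probe set and 0.12 and 0.57 in its others. Fbxl4, part of a ubiquitin ligase that limits BNIP3 and NIX, had 0.33, and Mcl1, a relative of Bcl2, 0.22.

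**Figure D3:**
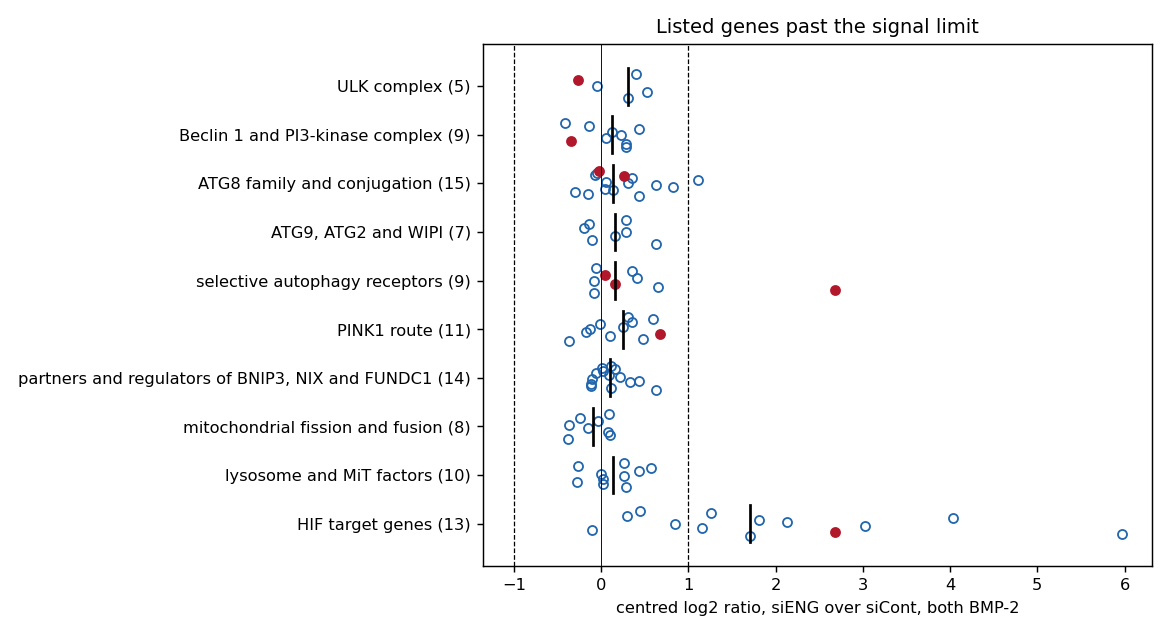
Centred log2 ratios of siENG over siCont (BMP-2 in both) for listed genes past the signal limit, 1 point per gene from its brightest probe set, with the number kept in brackets. Red points are genes of the Bnip3 group, open points others, short black bars list medians and dashed lines 2-fold. The autophagy and mitochondrial lists have medians from -0.09 to 0.31, the HIF target list 1.71.

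Of 14 known targets of the hypoxia-inducible factors, chosen with earlier results of these arrays in view, 13 were kept for siENG over siCont. Of these, 9 were 2-fold or more higher, Bnip3 included, or 8 of 12 without it, where 2.32% of all genes were. As deposited 10 were higher, where 4.04% of all genes were. The lowest of the 13 lay at -0.10 after centring. Because of how the list was chosen, these counts are a description. Pdk1 (4.03), Ero1a (3.03) and Ankrd37 exceeded Bnip3 (2.68) in their brightest probe sets. The other Ero1a probe sets gave 2.66 and 2.77, close to Bnip3. The siCont signal of Ankrd37 lay within the Bacillus controls. The factor genes themselves did not pass 2-fold: Hif1a read 2334, 2209 and 2389 on the 3 arrays, a log2 ratio of -0.10, and Epas1 read 61.2, 44.8 and 47.8.

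Across the 3 arrays, the genes nearest to Bnip3 in pattern were sought by distance over both log2 ratios (BMP-2 over vehicle, siENG over siCont) among 7180 genes past a signal of 152. With 3 arrays this likeness is coarse, and both ratios share an array. Maff, a small Maf transcription factor, was nearest at a distance of 0.21 log2 units, with signals of 28.0, 24.4 and 185. Next came Bst2, which tethers virus particles to cells, at 0.37 with signals of 328, 191 and 1404. Ero1a, an oxidase of the endoplasmic reticulum, followed at 0.43 with 211, 190 and 1792, then the stress-responsive gene Ndrg1 at 0.56 with 457, 331 and 1671. Fam162a, a mitochondrial protein, was the fifth at 0.87, with signals of 901, 942 and 4211. The search picked these genes for their likeness to Bnip3, so that likeness is not a result. Fam162a was lowest in vehicle and not with BMP-2 alone, and Maff passed the signal of 152 on the siENG array alone.

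**Figure D4:**
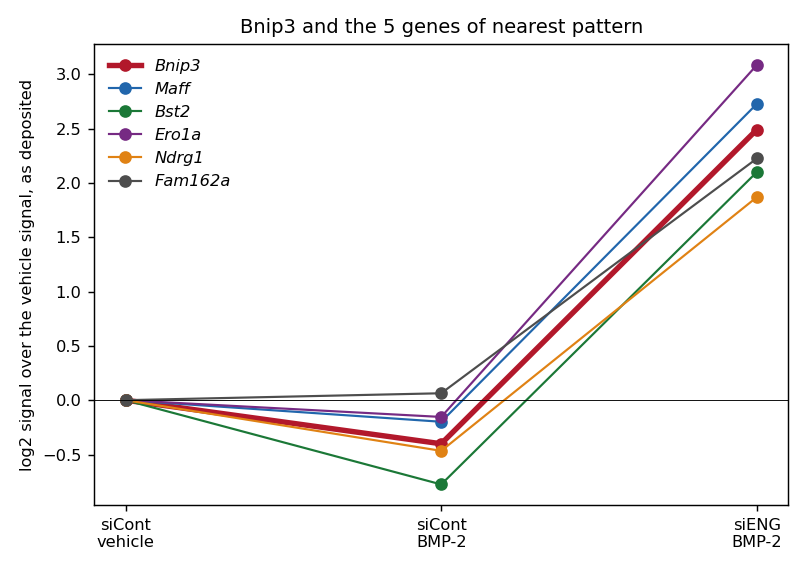
Log2 signal relative to the vehicle signal, as deposited, on the siCont vehicle, siCont BMP-2 and siENG BMP-2 arrays for Bnip3 (thick red line) and the 5 genes of nearest pattern, 1 array per condition. Bnip3 stands at 2.49 on the siENG array, and the likeness of the lines was set by how the genes were chosen.

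Other properties differed between the arrays as well. The summed signal of 6 leukocyte markers was 141, 127 and 221 on the vehicle, BMP-2 and siENG arrays, with 2, 3 and 3 past the limit. Cd68, a macrophage marker, had the largest part of this difference, with 71.0 on the vehicle and 118 on the siENG array and a centred log2 ratio of siENG over siCont of 1.02, and Lyz2, a myeloid lysozyme, read 11.5, 25.9 and 36.3. Csf1r read 40.6, 31.4 and 47.7 (centred log2 ratio of siENG over siCont 0.39). Adgre1 went the other way, with 13.6, 15.1 and 10.3 (-0.76). Ptprc and Itgam stayed at or below 8.1 on every array. Endothelial markers summed to at most 42.1 and epithelial markers to at most 80.5. RNA integrity, read as the 3' over 5' signal of Gapdh controls, came to 0.758, 0.774 and 0.804. The part of leukocyte markers and of RNA integrity in the Bnip3 value was not tested.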

How the data were processed

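The authors deposited a linear signal intensity per probe set. The submitters' processing notes name GCOS 1.4, while its background and scaling settings are not given in the sources that were used. The number of arrays limits the precision, and no test was possible. Signals listed at 0 (4 in all) were set to 0.1, and 64 control probe sets were left out. Of 45101 probe sets, 34958 have 1 gene symbol in the platform annotation, 932 several and 9211 none; symbols of 34754 were updated by gene identifier through RefSeq (GRCm38.p6). A gene was read from its probe set of highest mean log2 signal. Centring subtracted the median log2 ratio of the probe sets kept. The robust SD is 1.4826 times the median absolute deviation of log2 ratios over all probe sets, in 20 bins of mean log2 signal. A signal at or below the highest Bacillus control of its array (11.2 to 13.1) was taken as a bound.

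Genes named were the members, endoglin, up to 4 per list with the largest absolute ratio of siENG over siCont, and the 5 nearest to Bnip3; Hif1a, Epas1 and the genes of the marker lists were named beside them after their values were seen. The members, lists and tests were chosen with earlier results of these data known. Protein sequences were not used here, and 1 listed gene is not reported here. Alternatives were no limit, a limit at the 75th percentile, raised low signals, no centring, quantile normalization, a common trimmed mean, lowess centring (fraction 0.3) and the mean over probe sets. Python 3.11.15, numpy 2.4.6, pandas 2.3.3, statsmodels 0.14.6 and matplotlib 3.10.9 were used.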

Additional observations from a re-analysis of the deposited data

How the results depend on the processing

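No paired analysis was possible because each condition has 1 array. Bnip3 kept its direction under all 8 alternatives, with log2 ratios of 2.66 to 2.89 for siENG over siCont, 2.23 to 2.49 for siENG BMP-2 over siCont vehicle and -0.43 to -0.40 for BMP-2 over vehicle. The alternatives rescale the same readings, so they are no check of the siENG reading that picked Bnip3. With 1 probe set, its mean over probe sets is the same value again. Pink1 lay between 0.60 and 0.89 for siENG over siCont, and Gabarapl1 between -0.51 and -0.47 for BMP-2 over vehicle. Of 192 ratios of single genes under alternatives, 185 moved by less than the robust SD. Those of Map1lc3b (0.01), Ulk1 (0.08) and Becn1 (0.26) for BMP-2 over vehicle and of Sqstm1 (-0.29) for siENG over siCont moved when probe sets were averaged, and those of Bnip3, Map1lc3b and Sqstm1 for siENG BMP-2 over siCont vehicle moved without centring, to 2.49, 0.55 and 0.11. The following counts moved. For BMP-2 over vehicle, the count of probe sets 2-fold or more higher was 0 with the limit at the 75th percentile and with low signals raised, and the count lower was 1 with no limit (where 12.6% of all probe sets were). For siENG over siCont, the count higher was 2 with no limit (where 11.5% of all probe sets were), and the count lower was 0 with quantile normalization, with the limit at the 75th percentile, with no centring and with low signals raised. The count of listed genes lower with BMP-2 was 0 with the limit at the 75th percentile, which left out Bcl2.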

Other observations

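Of 8 genes of mitochondrial fission and fusion kept, 0 passed 2-fold in any comparison, where 1.59% to 2.85% of all genes did in 1 direction. Their median log2 ratio was 0.07 for BMP-2 over vehicle and -0.09 for siENG over siCont, or 0.12 for the latter as deposited. Dnm1l, the GTPase that divides mitochondria, had the lowest value with siENG, -0.38 (robust SD 0.22), with signals of 953, 1144 and 1016 in its brightest probe set and ratios of -0.29 and -0.39 in its next probe sets past the limit. The fusion gene Mfn2 had -0.37 (robust SD 0.30) and Mfn1 -0.15 (robust SD 0.33), and Mief2, which recruits the fission GTPase, -0.24.

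Of 10 lysosomal genes and MiT factors kept, 0 passed 2-fold after centring. For siENG over siCont 2.32% of all genes were higher and 2.70% lower, and the list's median log2 ratio was 0.14. As deposited, 1 of the 10 was higher for siENG BMP-2 over siCont vehicle, where 3.99% of all genes were. Mcoln1, a calcium channel of the lysosome, read 243, 248 and 424 (0.57, robust SD 0.33), and its other probe sets gave 0.59 and 1.06. Lamp2, a lysosomal membrane protein, had 0.43 in its brightest probe set and 0.10 to 0.15 in the other 3. The proton pump subunit Atp6v1h had 0.28 in its brightest probe set and 0.89 in its other past the limit, and Ctsd, an aspartic protease, -0.28.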
